A study of Canis lupus familiaris with 18 samples.

Results

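The genes described are 42 genes of the cell cycle and of proliferation, read across both right chambers of the dog heart, atrium (RA) and ventricle (RV). They were taken from a gene list, and a member was measured where a probe set of the array carried its symbol alone. This held for 38 of the 42, out of 15115 genes with such a probe set. MKI67, CCNB1, BUB1 and KIF20A had none and have no value here. Where a gene had several probe sets, the one with the highest mean over all arrays stood for it. The 38 genes had 78 probe sets, with 1 probe set for 11 genes and 2 to 4 for the other 27.

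The tissue came from adult dogs, mongrels or beagles, with the breed of each animal not given. Heart failure (HF) was produced by continuous rapid pacing of the ventricle with an implanted pacemaker. Early HF stands for 2 weeks of pacing and late HF for 5 weeks, and the protocol in the labels widens this to 2 to 3 and 5 to 6 weeks. Control dogs are labelled only as controls, and no allele, transgene or drug is named for any group. Total RNA of a small frozen piece of each chamber was hybridised to Affymetrix Canine_2 arrays, 3 each for RA control, RA early HF, RA late HF, RV control, RV early HF and RV late HF. The labels call the 3 replicates biological without naming the animals, so the p-values rest on the spread among these samples, which may in part be technical. A tissue piece holds many cell types, and in it fewer cells of a type cannot be told apart from less RNA per cell.

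Cells enter division through D-type cyclins, which bind CDK4 and CDK6, and cyclin E, which binds CDK2. These kinases release E2F factors, which switch on the genes of DNA replication, and CDK1 with the A and B cyclins then drives mitosis, while CDK inhibitors hold the cycle back. In the adult heart most cardiomyocytes no longer divide, and transcripts of replication and mitosis come mostly from interstitial, vascular and immune cells.

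All levels are log2 signals, so 1 unit is a doubling, and they are compared between arrays for one probe set only. Probe sets whose mean over 18 arrays lay under 5.31, the lowest 40%, were left out of the tests, and a level under 5.31 is called near background here. Of the 38 genes, 26 passed this filter and 12 did not. Differences were tested with limma over 25752 probe sets with 1 mean per group, carry the model's standard error (SE, n = 3 arrays in each group), and passed when the Benjamini-Hochberg adjusted p was under 0.05.

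Most chamber markers of 1 library went against its label. The library labelled RA late HF replicate 3 had the ventricular light chain MYL2 at 14.17, within 14.13 to 14.17 in RV controls, where RA controls had 6.04 to 9.38. Its MYL3, IRX5, MYL4 and PAM also lay inside the range of the RV arrays, and MYL7 lay below it. The atrial marker GJA5 was at 8.74, above every RV array (at most 7.52) and inside the range of the other RA arrays. DKK3, also atrial, was at 9.17, between the RV arrays (at most 8.53) and the other RA arrays (at least 12.05). MYL2 in RV late HF replicate 1 was at 12.76, below the other RV arrays. All arrays share the estimate of the spread, so each call is given with and without RA late HF replicate 3, which changes the error even of comparisons it is not part of. The 3' minus 5' signal of GAPDH, a sign of RNA integrity, was 1.15 to 1.61 in RA controls, 1.29 to 1.62 in RA early HF, 1.03 to 1.51 in RA late HF and 1.05 to 1.47 over the RV arrays. Array medians lay between 5.65 and 5.75.

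By role, all 8 of the G1 cyclins, their kinases and E2F1 passed the filter, as did 8 of 11 replication genes and 2 of 3 inhibitors, but only 8 of the 16 measured genes of mitosis. Near background in all 6 groups were the mitotic genes BUB1B, PLK1, KIF11, CENPF, TPX2 and BIRC5, the replication genes MCM2 and RRM2, and the inhibitor CDKN1B. TOP2A, CCNA2, CCNB2, CDC20, CDC6 and CDK6 were near background in some groups, and the other 23 were above it in every group. TOP2A passed the filter through RA early HF alone, since its mean over the other 15 arrays was 5.16.

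**Figure D1:**
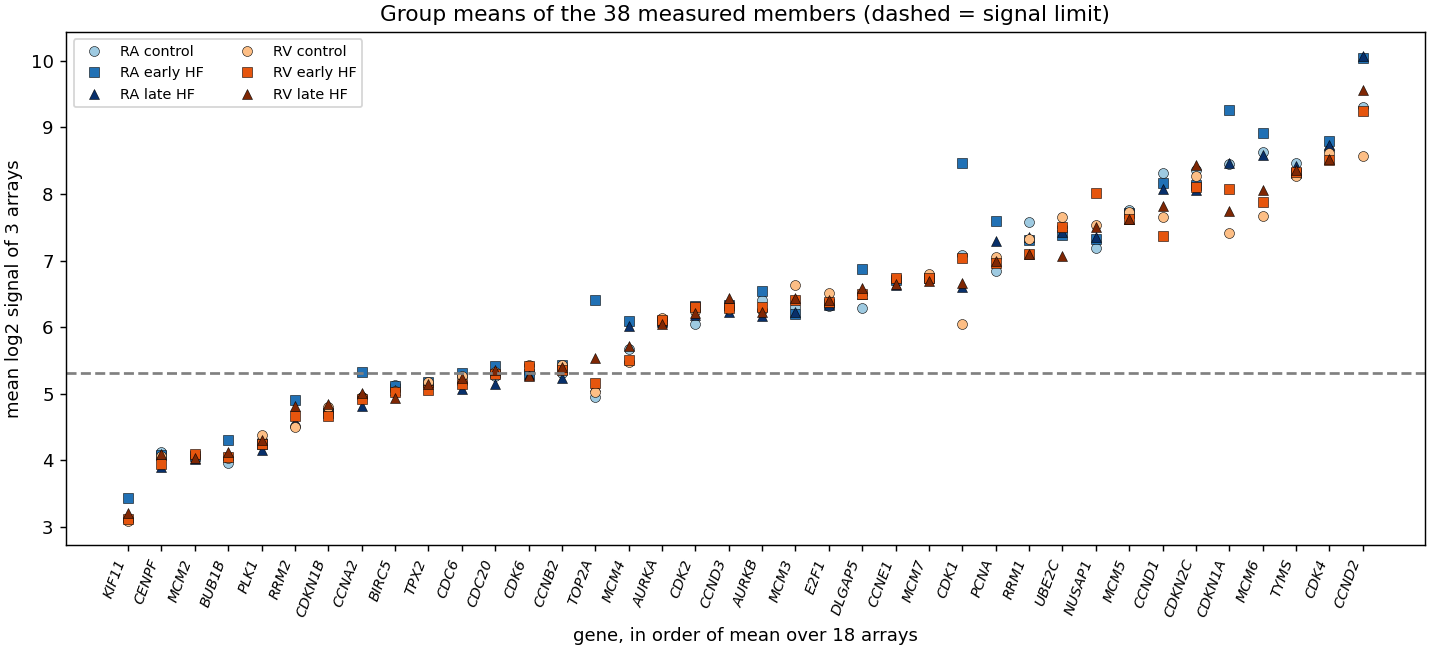
Mean log2 signal of 3 arrays in each of the 6 groups (symbols) for the 38 measured genes, in order of their mean over 18 arrays; the dashed line is the signal limit of 5.31. The symbols of most genes lie close together, while RA early HF stands above the other groups for TOP2A and CDK1.

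In RA early HF, 2 genes of mitosis, TOP2A and DLGAP5, passed as higher than in RA control, and no member of any role passed as lower. Of the 26 tested genes, 16 had a positive difference. Of the 8 tested genes of mitosis 2 passed, and of the 8 G1 genes, 8 replication genes and 2 inhibitors none did. TOP2A was among these 8 genes of mitosis only because RA early HF lifted its mean over the limit, so the roles are not compared on equal terms. The share of all tested probe sets that passed was 0.307% higher and 0.505% lower. The median change of the 26 tested genes was 0.07, against -0.02 over all probe sets, and 7 had an unadjusted p under 0.05, all of them higher (26.9%, beside 13.9% of all probe sets in either direction). In limma without the filter, TOP2A and DLGAP5 again passed among all 38 genes, beside 188 of 42924 probe sets. There 11 of the 38 had an unadjusted p under 0.05, all of them higher, beside 11.4% of all probe sets. Without RA late HF replicate 3, 3 genes passed, with PCNA added, at a background of 1.63% higher and 1.59% lower.

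TOP2A encodes the topoisomerase that untangles replicated chromosomes before they separate. Its log2 signals were 5.00, 4.76 and 5.10 in RA controls, 6.39, 5.83 and 7.01 in RA early HF, and 5.13, 4.98 and 5.21 in RA late HF. All early HF arrays stood above every other RA array, and the control arrays were near background. TOP2A rose by 1.46 as measured (SE 0.22, limma adjusted p = 0.00769, and 0.00351 without RA late HF replicate 3). Because the controls were near background this size may be understated, which was not tested. TOP2A entered the test only through the group where it was high, and in limma without the filter its adjusted p was 0.00817. It lost the call only when RA control replicate 2 was left out (1.36, adjusted p = 0.0545). A second, dimmer probe set of TOP2A, below the filter, differed by 0.44 (SE 0.08, adjusted p = 0.0353 in limma without the filter).

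DLGAP5 encodes a spindle protein that steadies microtubules at the kinetochores. Its signals were 6.27, 6.27 and 6.33 in RA controls, 6.77, 6.75 and 7.11 in RA early HF, and 6.36, 6.60 and 6.52 in RA late HF. The early HF arrays lay above both other RA groups, whose own ranges did not overlap either. DLGAP5 rose by 0.59 (SE 0.11, limma adjusted p = 0.0232, and 0.00894 without RA late HF replicate 3). The call was lost without RA control 1 (adjusted p = 0.098), 2 (0.0915) or 3 (0.0566), or RA early HF 3 (0.0943). The other 2 probe sets of DLGAP5, with means of 3.31 and 3.81, lay far under the signal limit and differed by 0.05 and 0.25.

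CDK1, the kinase that starts mitosis, had the widest range over the 18 arrays among these genes. Its signals were 7.66, 6.40 and 7.21 in RA controls, 8.10, 8.25 and 9.05 in RA early HF, and 7.73, 7.11 and 4.95 in RA late HF. Every early HF array was above every other RA array, and its lowest value of all was in the library labelled RA late HF replicate 3. The difference of early HF from control was 1.38 (SE 0.62, limma adjusted p = 0.33) and did not pass. Its 3 probe sets followed each other over the 18 arrays (Pearson r 0.94 to 0.98 with the chosen one, a description of probe sets that share their libraries), and the other two differed by 1.28 and 1.42.

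Among the replication genes, PCNA, the sliding clamp of the DNA polymerases, was nearest to the threshold. Its signals were 6.90, 6.77 and 6.87 in RA controls, 7.66, 7.21 and 7.92 in RA early HF, and 7.80, 6.87 and 7.19 in RA late HF. The early HF arrays did not overlap the controls, while the late HF arrays reached down into the control range. PCNA differed by 0.75 (SE 0.19, limma adjusted p = 0.0712, and 0.0426 without RA late HF replicate 3). Its second probe set differed by 0.50 (SE 0.18, adjusted p = 0.206).

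MCM4, a subunit of the replicative helicase, had 5.46, 5.74 and 5.81 in RA controls and 5.92, 6.01 and 6.34 in RA early HF. These groups did not overlap, with a difference of 0.42 (SE 0.14, adjusted p = 0.17) in limma. The other probe sets of MCM4, with means of 5.08 and 4.25 below the filter, differed by 0.25 and 0.01. The other helicase subunits in the tests differed less, with MCM6 at 0.28, MCM3 at -0.12, MCM5 at -0.04 and MCM7 at -0.01. RRM1, the large subunit of ribonucleotide reductase, differed by -0.27 and TYMS, which makes thymidylate, by -0.15. The replication genes thus did not move as one, and 3 of the 8 had a positive difference.

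Of the G1 genes, CCND2, a D-type cyclin, had the smallest p. Its signals were 9.02, 9.28 and 9.60 in RA controls and 10.34, 10.23 and 9.54 in RA early HF. Replicate 3 of early HF lay inside the control range, and the difference of 0.74 (SE 0.24, limma adjusted p = 0.16) did not pass. CDK2, partner of cyclin E, had 6.08, 5.97 and 6.09 in controls and 6.11, 6.28 and 6.53 in early HF, with a difference of 0.26 (SE 0.12, adjusted p = 0.332). CCND1, CCND3, CCNE1, CDK4, CDK6 and E2F1 differed by -0.16 to 0.13. The second probe set of CDK4, with a mean of 7.34, differed by 0.39 (SE 0.13, limma adjusted p = 0.167), with no overlap. In RA late HF it differed from control by 0.47. The inhibitor CDKN1A, the p21 protein induced by p53, spread widely at 9.92, 9.13 and 8.73 in early HF against 8.19, 8.38 and 8.77 in controls, and its groups overlapped.

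Dim genes outside the tests can still be read array by array. Over all 38 measured genes, the 3 arrays of RA early HF lay wholly above the 3 controls for 10 genes (26.3%) and wholly below for none, while over 15115 genes this was so for 7.56% and 8.57%. The 10 were TOP2A, DLGAP5, CDK1, CCNA2, BUB1B and KIF11 of mitosis, PCNA, MCM4 and RRM2 of replication, and CDK2 of G1. BUB1B, a kinase of the spindle checkpoint, had 3.88, 4.03 and 3.97 in controls and 4.19, 4.13 and 4.58 in early HF. KIF11, the motor that pushes spindle poles apart, had 3.08, 3.12 and 3.13 against 3.42, 3.33 and 3.53, and RRM2, the S-phase subunit of ribonucleotide reductase, 4.45, 4.44 and 4.64 against 4.82, 4.70 and 5.21. In limma without the filter these 3 and the cyclin CCNA2 differed by 0.32 to 0.40, with adjusted p from 0.179 to 0.292. The second probe set of RRM2 differed by 0.10 (SE 0.10), with overlapping arrays.

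For each of these 10 genes the highest of the 18 arrays was RA early HF replicate 3. That array was the highest for 15 of the 38 genes (39.5%), and for 5.5% of the 15115 genes. AURKB, MCM6, CDC20, TPX2 and BIRC5 were the other 5 of the 15. Without it, TOP2A was still higher in RA early HF by 1.16 (limma adjusted p = 0.0337) and DLGAP5 by 0.47 (adjusted p = 0.0943), so the first call held and the second did not.

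**Figure D2:**
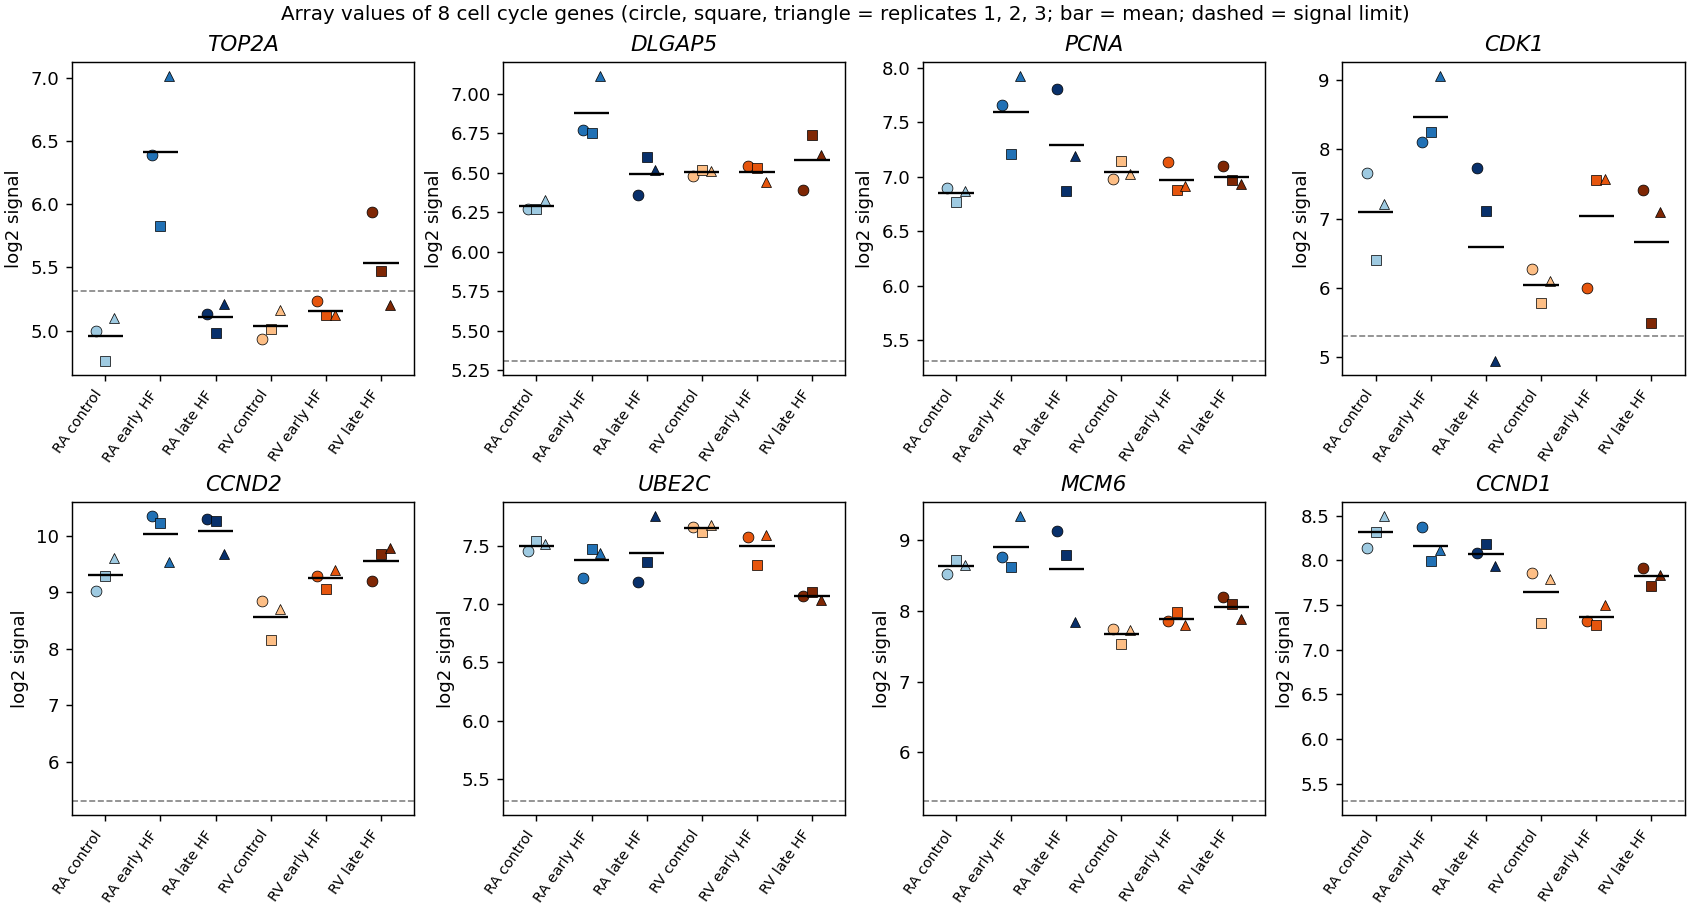
Log2 signal of 8 genes on each of the 18 arrays by group, with the mean of 3 arrays as a bar and the signal limit of 5.31 dashed; the axes differ between genes. TOP2A, DLGAP5 and CDK1 stand highest in RA early HF, UBE2C is lowest in RV late HF, and MCM6 and CCND1 stand higher in RA controls than in RV controls.

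**Figure D3:**
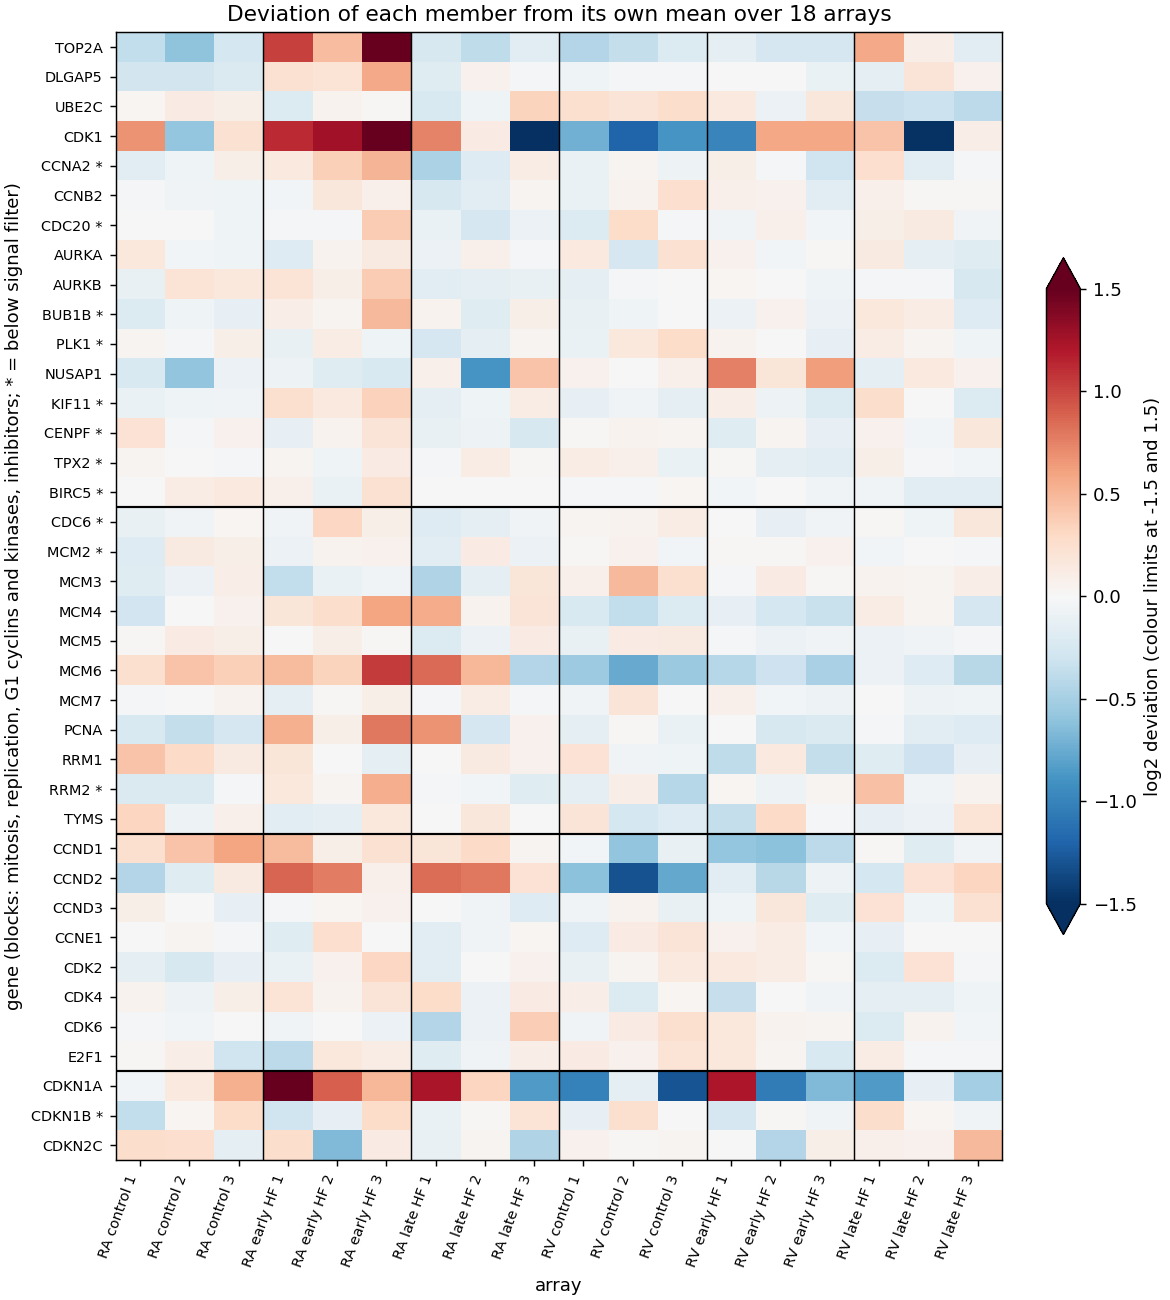
Log2 deviation of each of the 38 genes from its own mean over 18 arrays, with arrays in columns by group, genes in rows by role, and a star on the 12 genes below the signal filter. RA early HF replicate 3 is the highest array for 15 genes, among them TOP2A, CDK1 and PCNA.

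For NUSAP1 and CCNB2, picked after their values were seen, 1 other probe set differed by much more than the one that stood for the gene. Other genes of mitosis had smaller gaps in RA early HF, in either direction. Another probe set differed by 0.22 for CENPF (-0.04 for the chosen one) and by 0.08 for AURKA (-0.02). For UBE2C another differed by -0.24 (-0.12 for the chosen one) and for BIRC5 by -0.11 (-0.01). The brightest probe set of NUSAP1, a protein that bundles spindle microtubules, differed by 0.14 in RA early HF, and a dimmer one with a mean of 5.03 by 0.82 (SE 0.24, adjusted p = 0.14 in limma without the filter). The remaining probe sets of NUSAP1, with means of 4.99 and 4.90, differed by only 0.02 and 0.01. For CCNB2, a mitotic cyclin, the brighter probe set differed by 0.11 and the dimmer one by 0.70 (SE 0.20, adjusted p = 0.143 in limma without the filter). The dimmer probe set of CCNB2 had its highest value of the 18 arrays, 5.70, in RA early HF replicate 3.

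**Figure D4:**
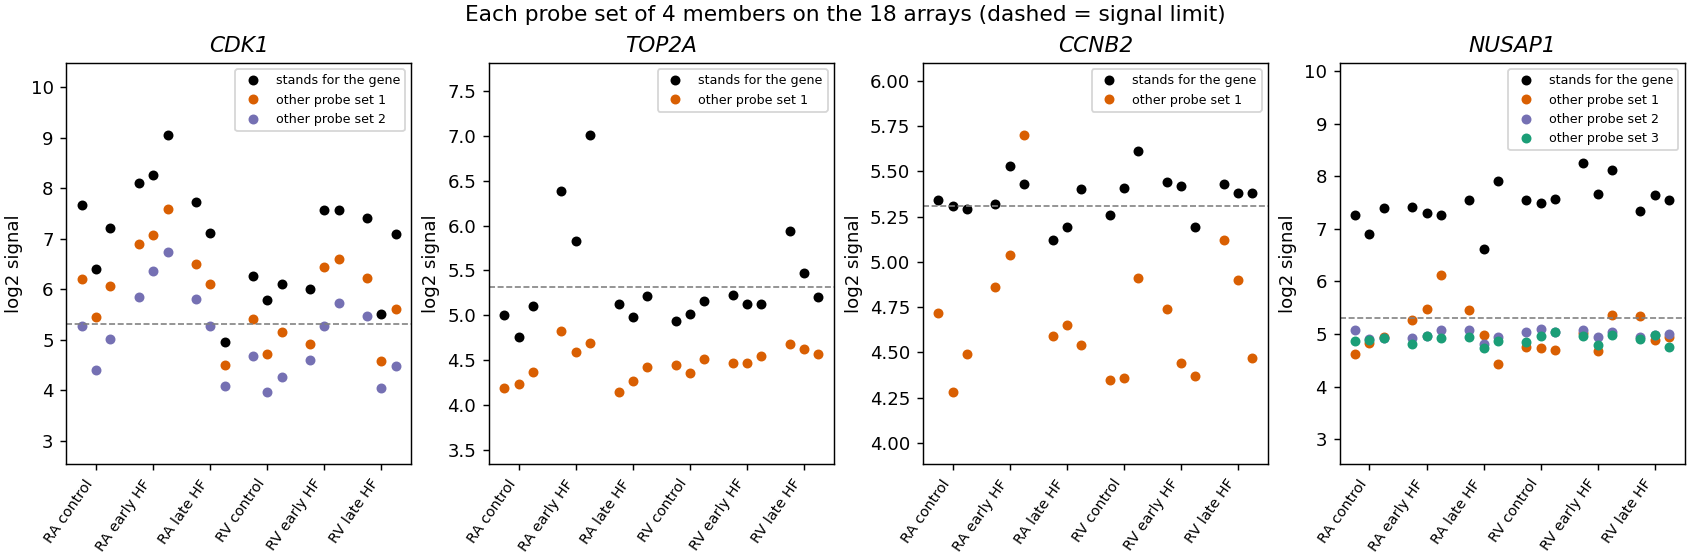
Log2 signal of every probe set of CDK1, TOP2A, CCNB2 and NUSAP1 on the 18 arrays, 3 per group, with the probe set that stands for the gene in black and the signal limit of 5.31 dashed. The 3 probe sets of CDK1 run in parallel, while those of NUSAP1 do not.

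Markers of some other cell types were also higher in RA early HF, and those of others were not. The summed linear signal of 13 macrophage markers was 4800 to 9289 there and 2591 to 2934 in RA controls. The median difference of the 12 tested was 1.00, 0 passed in limma, and 6 passed without RA late HF replicate 3 (CTSS, LYZ, TYROBP, C1QC, MRC1 and C1QA), with MARCO near background in every group. The sum of 10 fibroblast markers was 18478 to 35358 against 11199 to 12526, with a median difference of 1.10 over the 9 tested, of which POSTN passed (6 without that library), and with TCF21 near background. The sum of 7 endothelial markers was 2787 to 3777 against 2020 to 2313, and that of 7 cardiomyocyte markers 54022 to 59316 against 65845 to 69893, with TNNT2 lower in limma with and without that library. Of the pericyte and smooth muscle markers, RGS5 was higher by 1.05 (SE 0.21, limma adjusted p = 0.0348, and 0.00737 without that library), and the sum of the 7 was 3325 to 4579 against 2978 to 3511. The sum of 5 ventricular markers was 1547 to 6259 against 391 to 1029, and MYL2 lay at 9.73 to 12.06 against 6.04 to 9.38. No ventricular marker passed with all libraries, and MYL2 (3.46, adjusted p = 0.0126) and MYL3 (1.89, adjusted p = 0.0171) passed without RA late HF replicate 3. The sum of 5 atrial markers was lower, at 42130 to 43511 against 49783 to 51815. That of 4 adipocyte markers overlapped, at 2838 to 4162 against 2596 to 4265. The sum of 3 neutrophil markers also overlapped, at 141 to 221 against 129 to 155, with S100A9 near background. So did that of 4 mast cell markers, at 305 to 436 against 270 to 314. For the 8 T cell markers the sums were 570 to 674 and 603 to 675, with CD3D, CD3G and LCK near background, and all 3 B cell markers were near background. The part of these cell types in the values of TOP2A, DLGAP5 and the other cell cycle genes was not tested.

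**Figure D5:**
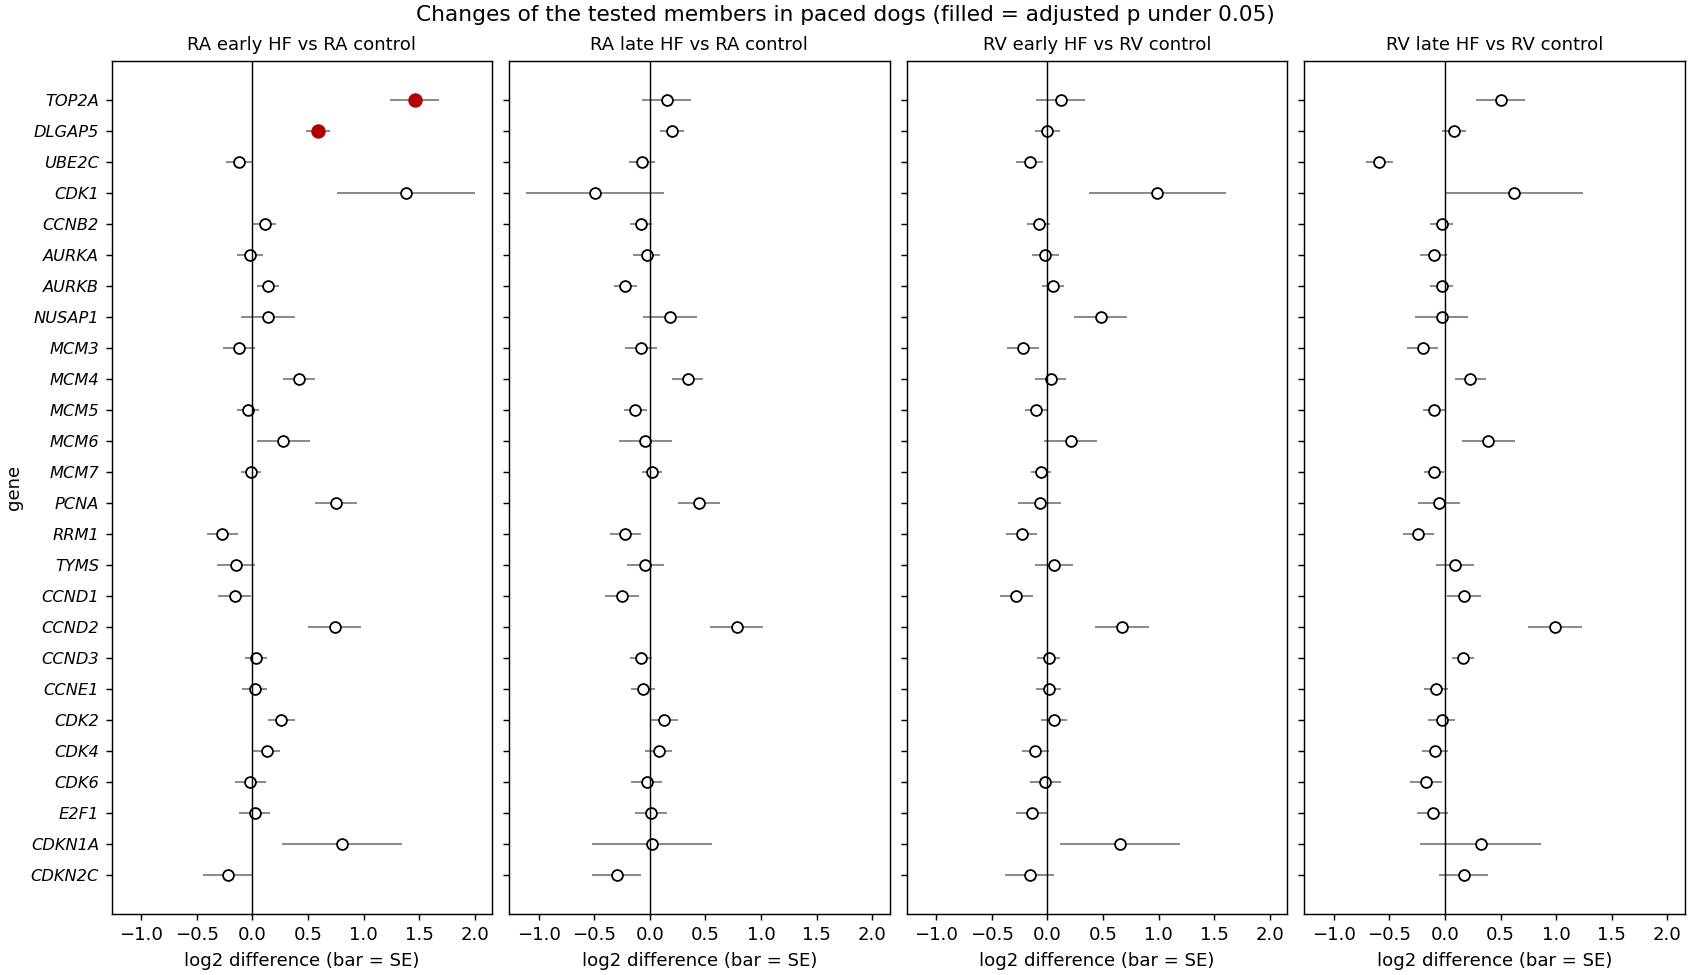
Log2 difference of the 26 tested genes from the control of the same chamber, with the SE of the fit as bars; filled points have a limma adjusted p under 0.05. The filled points are TOP2A and DLGAP5 in RA early HF, and the point of CCND2 lies to the right of 0 in all 4 comparisons.

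In RA late HF no member passed against RA control, at a background of 0.0699%, and 4 genes had an unadjusted p under 0.05 in limma (15.4%, beside 11.7% of all probe sets). Without RA late HF replicate 3 the count was also 0, at a background of 1.65%. CCND2 had the largest difference, with 10.30, 10.26 and 9.68 in late HF, all above the controls. It differed by 0.78 (SE 0.24, limma adjusted p = 0.254), and by 0.98 (adjusted p = 0.0581) without that library. MCM4 differed by 0.34, PCNA by 0.44, DLGAP5 by 0.20 and AURKB, the kinase of the chromosomal passenger complex, by -0.22, while TOP2A differed by 0.15. The arrays did not overlap the controls for 2 higher genes, DLGAP5 and CCND2, and for 2 lower ones, CDC20 and CENPF, both near background. These are 5.26% of the 38 each way, beside 5.22% higher and 6.26% lower over all genes.

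Between the 2 stages in the RA, the genes of mitosis that were high in early HF had lower values in late HF, and none of these differences passed. This comparison uses the same RA early HF arrays as that of early HF with control. TOP2A differed by -1.30 (SE 0.22, limma adjusted p = 0.212), DLGAP5 by -0.38 (adjusted p = 0.391) and AURKB by -0.37 (adjusted p = 0.372). CDK1 differed by -1.87 (SE 0.62, adjusted p = 0.469), or by -1.05 without RA late HF replicate 3. The background was 0% in this comparison, and 4 of the 26 genes had an unadjusted p under 0.05 (15.4%, beside 8.03% of all probe sets). By arrays, late HF lay wholly below early HF for 8 of 38 genes (21.1%, TOP2A, DLGAP5, CDK1, CCNA2, CDC20, AURKB, RRM2 and KIF11) and wholly above for none, beside 2.66% and 4.33% over all genes.

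In RV early HF no member passed, at a background of 0.105% (0.54% without RA late HF replicate 3), and 1 had an unadjusted p under 0.05 in limma (3.85%, beside 8.48% of all probe sets). TOP2A had 4.93, 5.01 and 5.16 in RV controls and 5.23, 5.12 and 5.12 in RV early HF, and DLGAP5 6.48, 6.52 and 6.51 against 6.54, 6.53 and 6.44. Both genes overlapped between the groups, with differences of 0.12 and 0.00. CCND2 had 8.85, 8.16 and 8.70 in controls and 9.29, 9.05 and 9.39 in early HF, with no overlap and a difference of 0.67 (SE 0.24, limma adjusted p = 0.388). NUSAP1 differed by 0.48, CCND1 by -0.28, RRM1 by -0.23 and CDK1 by 0.99 (SE 0.62). CDK1 was high on 2 of the 3 arrays, with 6.00, 7.56 and 7.57 against 6.27, 5.78 and 6.10 in controls. The arrays did not overlap for 3 higher genes, CCND2, MCM6 and NUSAP1 (7.89%, beside 5.95% of all genes), and 2 lower ones, UBE2C and CDC6 (5.26%, beside 8.42%).

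In RV late HF no probe set of the array passed with all libraries, a background of 0% at the adjusted threshold. At an unadjusted p under 0.05 in limma there were 3 members (11.5%, beside 9.21% of all probe sets). UBE2C, the ubiquitin-conjugating enzyme of the anaphase-promoting complex, had 7.66, 7.62 and 7.68 in RV controls and 7.07, 7.10 and 7.03 in RV late HF. Both groups were tight and far apart, and its difference of -0.59 (SE 0.12) had an adjusted p of 0.386 in limma with all libraries. Without RA late HF replicate 3 the adjusted p was 0.0267, which made UBE2C the 1 member that passed, at a background of 0.132%. Its other 2 probe sets differed by -0.20 and 0.08.

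CCND2 had 9.20, 9.68 and 9.79 in RV late HF, above all RV controls, a difference of 0.99 (SE 0.24, limma adjusted p = 0.386, and 0.0839 without that library). TOP2A had 5.94, 5.47 and 5.20 in RV late HF, above its RV controls on every array, with a difference of 0.50 (SE 0.22, adjusted p = 0.515). The highest of these values was in RV late HF replicate 1, the array with low MYL2. RRM1 differed by -0.24 and MCM4 by 0.23. The arrays did not overlap for 3 higher genes, TOP2A, CCND2 and MCM6 (7.89%, beside 7.99% of all genes), and 3 lower ones, UBE2C, RRM1 and BIRC5 (7.89%, beside 10.4%). Against RV early HF, UBE2C differed by -0.43, CCND1 by 0.45 and NUSAP1 by -0.50, with no call among the 26 genes and a background of 0% in limma, and 2 genes had an unadjusted p under 0.05 (7.69%, beside 5.56% of all probe sets). In RV late HF the macrophage markers summed to 4112 to 4204, against 2408 to 2618 in RV controls, and the fibroblast markers to 11263 to 14118, against 6368 to 6899, and their part in these values was not tested.

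Between the chambers of control dogs, 2 members passed, CCND1 and MCM6, both higher in the RA. The background was 1.69% higher and 1.21% lower, or 3.26% and 2.4% without RA late HF replicate 3, where the same number passed. CCND1, a D-type cyclin, had 8.14, 8.32 and 8.49 in the RA and 7.86, 7.30 and 7.79 in the RV. The groups did not overlap, with a difference of 0.67 (SE 0.15, limma adjusted p = 0.0212, and 0.0111 without RA late HF replicate 3), while its second probe set differed by 0.21 (adjusted p = 0.458). The call of CCND1 was lost without RA control 2 (adjusted p = 0.071) or 3 (0.116) or RV control 2 (0.124), and with the mean of its probe sets (0.44, adjusted p = 0.052).

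MCM6, a helicase subunit, had 8.53, 8.72 and 8.65 in RA controls and 7.75, 7.53 and 7.73 in RV controls. The chambers were well apart, with a difference of 0.96 (SE 0.24, limma adjusted p = 0.0409, and 0.00123 without RA late HF replicate 3), and the second probe set differed by 1.00 (adjusted p = 0.0292). With RA and RV arrays of the same number as a block, a pairing drawn from the data, the adjusted p of MCM6 was 0.0872 and the call was lost, and it was lost without any 1 of the 6 control arrays (adjusted p 0.0834 to 0.171) or with each array centred on its median (adjusted p = 0.0511). In RA late HF, MCM6 had 9.14, 8.79 and 7.85, and the low value belonged to the library with MYL2 at the RV level. CCND2 was higher in the RA by 0.73 (adjusted p = 0.124) and CDK1 by 1.04 (adjusted p = 0.445), both without overlap. The arrays did not overlap for 5 higher genes, CDK1, CCND1, CCND2, CDKN1A and MCM6 (13.2%, beside 10.4% of all genes), and for 6 lower ones, DLGAP5, UBE2C, CDK2, CDC6, PCNA and NUSAP1 (15.8%, beside 13.4%). The fibroblast markers summed to 11199 to 12526 in RA controls and 6368 to 6899 in RV controls, and their part in these differences was not tested.

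The difference between the chambers in the response to pacing was tested as an interaction, and no member passed at either stage. At the early stage TOP2A had 1.33 more in the RA than in the RV (SE 0.31, limma adjusted p = 0.497), DLGAP5 0.59 (SE 0.15, adjusted p = 0.555) and PCNA 0.82 (SE 0.27, adjusted p = 0.702). At this stage the change was more positive in the RA for 20 of the 26 genes, more positive in the RV for 4, and equal for AURKA and CDK6. The median was 0.08 against -0.01 over all probe sets, and 3 genes had an unadjusted p under 0.05 (11.5%, beside 5.45% of all probe sets). At the late stage UBE2C had 0.52 more in the RA (SE 0.17, adjusted p = 0.581) and CCND1 -0.42, and 1 had an unadjusted p under 0.05 (3.85%, beside 7.87%). The backgrounds were 0.00388% and 0.00777%. The rise of TOP2A and DLGAP5 in the RA is therefore not shown to differ from the RV.

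Wider lists of genes of DNA replication, mitosis and cell cycle control, without the genes above, had together 96 tested genes. In each of the 4 comparisons of HF with control, 0 of these passed in limma with all libraries. In RA early HF 6 had an unadjusted p under 0.05 as higher and 2 as lower, in RA late HF 4 and 3, in RV early HF 2 and 3, and in RV late HF 3 and 2. These are 8.33%, 7.29%, 5.21% and 5.21% of the 96, each below the share of all probe sets (13.9%, 11.7%, 8.48% and 9.21%). The share was above it for RA late against early HF (14.6%, beside 8.03%) and for the early and late interactions (8.33% each, beside 5.45% and 7.87%). It was below for RV late against early HF (5.21%, beside 5.56%) and between control chambers (10.4%, beside 16.3%). Without RA late HF replicate 3, RA late HF against control had 19.8%, beside 19.1%. In that fit, 1 of the 96 passed in each of 3 comparisons of HF with control. The backgrounds there were 1.63% (higher, RA early HF), 1.65% (RA late HF) and 0.132% (RV late HF). These were CDKN3, a phosphatase of cyclin-dependent kinases, higher by 0.44 in RA early HF, CKS1B, a kinase subunit, higher by 0.57 in RA late HF, and HMGB2, a chromatin protein, higher by 0.76 in RV late HF. In controls, DNMT1 (0.51, adjusted p = 0.0263, and 0.00519 without that library) and HMGB2 (0.86, adjusted p = 0.0482, and 0.000449 without it) were higher in the RA than in the RV.

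Over the 18 arrays, the levels closest to that of TOP2A were those of KIF11 (Pearson r 0.85), BUB1B (0.82), DLGAP5 (0.79), RRM2 (0.77), PCNA (0.73) and CCNA2 (0.72). These are descriptions over arrays that differ in chamber and pacing, and KIF11, BUB1B, RRM2 and CCNA2 were below the signal filter. TOP2A and each of these genes had their highest value in RA early HF replicate 3, and r was not computed without that array. Narrow ranges over the 18 arrays were those of CCNE1 at 6.50 to 6.94, MCM7 at 6.61 to 6.94 and MCM5 at 7.48 to 7.82. CDK4 lay between 8.30 and 8.92 and CCND3 between 6.11 and 6.54.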

How the data were processed

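The files hold log2 signals per probe set of 18 arrays as deposited, and the submitters' processing notes name MAS5 with no version. The log2 scale was read from the values, and the scaling target is not given in the sources used here. Of 43035 probe sets, 111 controls were left out, and of the other 42924, 29254 had 1 gene symbol in the platform annotation, 439 several and 13231 none. No further normalization was applied. A model with 1 mean for each of 6 groups was fitted with limma 3.58.1 in R 4.3.3 (12 residual degrees of freedom, trended variance prior, two-sided tests) and was tested on simulated data. In all, 9 contrasts were tested: early and late HF, each with its control and with each other in both chambers, the chambers of control dogs, and the chamber difference of either HF effect.

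The members and lists were chosen with earlier results of these data known. Full statistics are given for members past the threshold and the 5 of smallest p in each comparison. The other probe sets of DLGAP5, NUSAP1 and CCNB2, and CDK2, CDKN1A and genes outside the filter were singled out after their values were seen. Whether a replicate number marks a pair of RA and RV arrays was checked on their deviations from the group means. The Pearson correlations by number were 0.356, 0.237 and 0.421 for control dogs. For early HF they were 0.172, 0.26 and 0.151, and for late HF 0.053, -0.421 and 0.154. On this basis RA and RV arrays of the same number were taken as a block in control dogs and at the early stage. Between conditions of a chamber, the correlations by number ran from -0.325 to 0.365. For comparisons within a chamber, a different block joined the arrays of the same number in that chamber across control and HF. Arrays of different numbers were not compared and the labels name no animals, so the pairing is not established. Alternatives changed the filter, prior, arrays in the fit, array weights, normalization, probe set rule and block, and left out each array. The number of arrays limits the precision. Figures were drawn with Python 3.11.15 and matplotlib 3.10.9.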

Additional observations from a re-analysis of the deposited data

How the results depend on the processing

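No change of a member that passed reversed its direction under any alternative. Of the count results under the alternatives, 155 stayed within 1.5 times the value reported and 25 moved. In RA early HF, where 2 members passed, 1 did with the lowest 60% of signals left out, 0 with the mean of all probe sets of a gene and 1 without probe sets that may cross-hybridise; TOP2A was not tested in these 3, being below the filter or left out, nor was DLGAP5 in the second. Leaving out 1 array gave 0 to 3. In RA late HF, 3 members passed with array weights (NUSAP1, CCND2 and DLGAP5), against 0, while 10% of all probe sets did. In RV late HF, 2 passed with array weights (0.889% of all probe sets), 1 with only the groups compared (0.998%) and 1 without RA late HF replicate 3, against 0. Between RA late and early HF, 7 passed with array weights (9.63% of all probe sets) and 0 to 1 when an array was left out (TOP2A without RA early HF 2 or RA late HF 1), against 0. In controls, where 2 passed between the chambers, 4 did with array weights (10.1% of all probe sets), 1 with the mean of probe sets, 1 with median centring, 4 with only the groups compared (8.4%), 1 with the replicate block and 0 to 2 when an array was left out. The block changed no other call. Counting a member by any of its probe sets, an alternative chosen after seeing the data, changed no count of members. Array weights raised the calls over all probe sets in RA early HF from 79 higher and 130 lower to 438 and 841. Quantile normalization gave 222 and 198, and median centring 33 and 94. The block by number within a chamber, not that of RA with RV arrays, gave 76 and 71. The causes were not tested. With 3 arrays a group, genes near background such as BUB1B, KIF11 and RRM2 have differences that may be understated.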
